A study of Mus musculus with 2 samples.

Results

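ATP synthase is the last enzyme of oxidative phosphorylation, and 10 of its nuclear subunit genes are described here in brown fat of mice kept in the cold. They were chosen by name, with earlier results of these data known. Atp5g1, Atp5g2 and Atp5g3 encode the c subunit, Atp5a1, Atp5b, Atp5c1, Atp5d and Atp5e encode the F1 head, and Atp5h and Atp5o encode parts of the peripheral stalk. All 10 had reads in both libraries, out of 15622 genes with at least 1 read in the series. They hold 56 annotated transcripts, of which 44 had at least 1 read.

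Interscapular brown fat was sampled, and its poly(A)+ RNA was read as native molecules on a nanopore, 1 molecule per read. The cold library was a pool of RNA from 3 male wild type C57BL/6N mice of 20 weeks, each kept alone at 4 °C for 24 h. The control library, marked ctrl in its treatment label, comes from the same sex, strain, genotype and age per the shared protocol text, with general housing at 22 to 24 °C. The number of mice behind the control was not given, its protocol text repeats the cold exposure, and the extraction text names a different fat depot, so the groups rest on the treatment label alone. With 1 library in each group there is no spread between animals and no test of the conditions. Values in parentheses after a ratio, share or level are 95% intervals that cover counting error only. They compare these libraries.

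The cold library held 1215617 reads and the control library 1698124 reads. Ratios are cold over control after scaling by trimmed mean of M values (TMM), and with plain totals every log2 ratio would be 0.18 higher. The tissue label was checked against marker lists. All 8 brown adipocyte markers were detected, and under TMM 6 of them had an interval above a ratio of 1 and 1 below it. Of 6 general adipocyte markers, 4 lay above and 1 below, and they summed to 2.43% of cold and 1.54% of control reads. Over all genes with at least 20 summed reads, 11.3% lay above and 11.3% below. Ucp1, the uncoupling protein that turns the proton gradient into heat, had 14526 reads in the cold library and 14860 in the control. That was 1.19% and 0.875% of cold and control reads, and its ratio after scaling was 1.21. The 16 skeletal muscle markers summed to 0.209% of reads (0.201 to 0.218) in the cold library and 0.0457% (0.0425 to 0.0490) in the control. All 16 had an interval above a ratio of 1. Macrophage markers took 0.00831% and 0.00489%, and endothelial markers 0.0492% and 0.0307%, of cold and control reads. Of the 7 macrophage markers only 2 had at least 20 summed reads, and both had an interval above a ratio of 1. In bulk tissue, fewer cells of a type and less RNA per cell cannot be told apart.

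ATP synthase lets protons flow back through the inner mitochondrial membrane and uses that flow to make ATP. Protons turn a membrane ring built from several copies of the c subunit, the ring turns the central shaft of the F1 head, and the peripheral stalk holds the head still. Brown adipocytes are known for a large respiratory chain and little ATP synthase, and Ucp1 gives protons another way back. In rodent brown fat the Atp5g1 product is known as a limiting component for the amount of ATP synthase. The c-subunit genes encode the same mature protein behind different mitochondrial targeting sequences.

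The coding sequences of the c-subunit genes are shown first, because reads from them have to be told apart by sequence. In their leading transcripts, the most read ones, Atp5g1 has 136 codons, Atp5g2 146 and Atp5g3 141, and the last 78 codons specify the same residues in all. Over the 237 bases of this shared end, stop codon included, Atp5g1 was identical to Atp5g2 at 84.8% of bases and to Atp5g3 at 78.5%. The first 90 bases of this end follow, 5′ to 3′ from GENCODE M21, with capitals where a base differs from Atp5g1. There are 14 such bases in Atp5g2 and 22 in Atp5g3.
Atp5g1: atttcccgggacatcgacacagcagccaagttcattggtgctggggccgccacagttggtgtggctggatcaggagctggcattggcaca
Atp5g2: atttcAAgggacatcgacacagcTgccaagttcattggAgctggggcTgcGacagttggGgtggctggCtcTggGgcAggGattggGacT
Atp5g3: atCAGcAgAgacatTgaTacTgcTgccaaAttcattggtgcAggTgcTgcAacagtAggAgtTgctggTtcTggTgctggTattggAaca

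Atp5g1 stood apart from the other c-subunit genes. It had 60 reads in the cold library and 32 in the control, a ratio of 2.31 (1.48 to 3.67) and a log2 ratio of 1.20. Its interval lay above a ratio of 1 under all 4 scalings compared (TMM, DESeq2 size factors, total counts, and total counts without mitochondrially encoded genes). With its most abundant transcript alone, Atp5g1-201, the ratio was 1.40 (0.758 to 2.61), which spans 1. Atp5g1-201 leads narrowly on reads summed over both libraries, and in the cold library Atp5g1-202 had more, 33 against 25. Among the 7529 genes with 20 or more summed reads, 4.2% lay above 1 with a ratio of 2 or more, as Atp5g1 did, and 3.31% had a higher log2 ratio. Atp5g1 is also transcribed in skeletal muscle, and the 16 muscle markers were higher in the cold library too, with a median log2 ratio of 2.23. Their part in the Atp5g1 difference was not tested. Atp5g1 lies on chromosome 11 (96068852 to 96075670, minus strand, GRCm38).

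The major c-subunit genes moved little. Atp5g3 (chromosome 2, 73908447 to 73911326, minus strand) had 499 reads in the cold library and 714 in the control, 1.16-fold lower (1.03 to 1.30) in the cold library. Its log2 ratio was -0.21, or -0.03 with total counts, where its interval no longer lay below 1. Atp5g2 (chromosome 15, 102662864 to 102672352, minus strand) had 340 reads in the cold library and 463 in the control. Its ratio of 0.906 (0.785 to 1.04) did not differ from 1 beyond counting error.

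The share of Atp5g1 among reads of the c-subunit genes does not depend on library scaling. It was 6.67% (5.13 to 8.51), 60 of 899 reads, in the cold library, and 2.65% (1.82 to 3.72), 32 of 1209, in the control. The difference of 4.03 percentage points had an interval of 2.22 to 6.00, and it was 1.48 points when only the most abundant transcript of each gene was counted. Atp5g1 was thus a minor source of c-subunit reads in both libraries. Atp5g3 supplied 55.5% (52.2 to 58.8) and 59.1% (56.2 to 61.8), and Atp5g2 37.8% (34.6 to 41.1) and 38.3% (35.5 to 41.1), of cold and control c-subunit reads. Per kilobase of transcript the Atp5g1 share was 5.11% in the cold library and 1.30% in the control. On that scale a read on a shorter transcript counts for more, although each read is 1 molecule. Unlike the shares, the sum of all c-subunit genes does depend on scaling. Together they had 899 and 1209 reads, a ratio of 0.917 (0.840 to 1.00) under TMM. The upper limit, 1.00045, lay barely above 1, and with DESeq2 size factors, which lower every log2 ratio slightly, it would fall below 1. By plain totals the sum was 0.0740% of cold and 0.0712% of control reads, so its direction rests on the scaling.

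Atp5g2 has an annotated full copy that also had reads. Every 25-base word of Gm10175, a processed copy on chromosome 7 (23946646 to 23947290), also occurs in Atp5g2. It had 117 reads in the cold library and 162 in the control, which is 25.6% (21.7 to 29.9) and 25.9% (22.5 to 29.5) of the reads of copy and gene together. The split between gene and copy is uncertain, but it was alike in both libraries, and adding the copy left the Atp5g1 share difference at 3.57 points. Gm10039, a processed copy with 93.5% of its words in Atp5g1, had no read in either library.

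**Figure D1:**
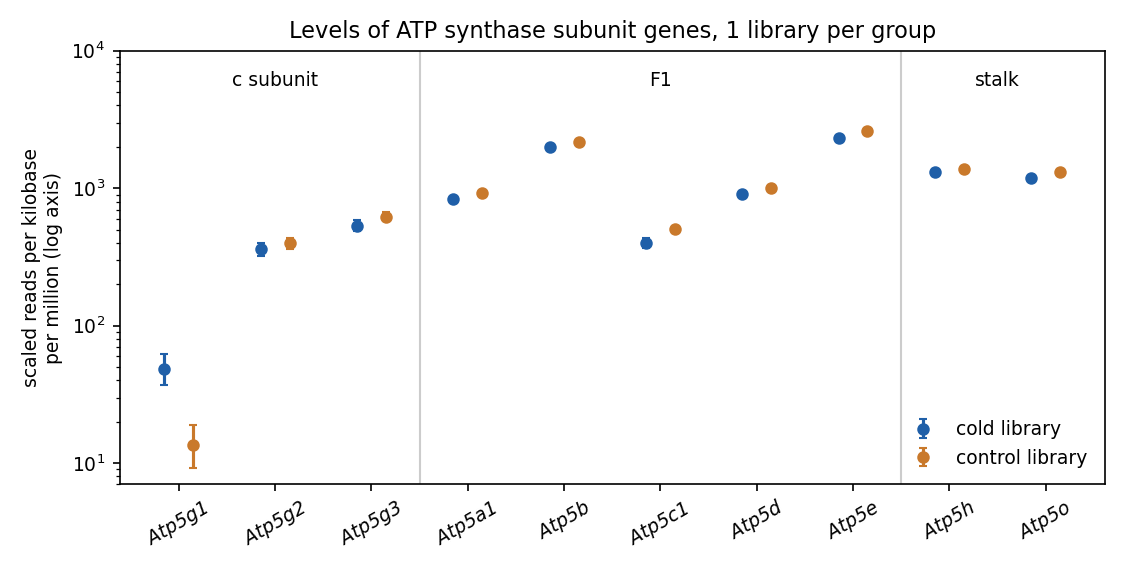
Scaled RPKM, reads per kilobase of transcript scaled to library size (log axis), of the 10 subunit genes in the cold library (blue) and the control library (orange), with exact 95% Poisson intervals, 1 library per group. Atp5g1 is lowest in both libraries, at 48.2 in cold and 13.4 in control, and is the gene whose points are farthest apart. Each read is 1 molecule, so division by length raises short transcripts and widens the gap of Atp5g1, whose ratio by reads is 2.31.

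The reads of Atp5g1 fell on transcripts that encode the same protein but end at different places. All 4 annotated transcripts carry 1 and the same coding sequence of 411 bases, stop codon included. Atp5g1-202 and Atp5g1-203 end soon after the stop codon, with a 3′ untranslated region (UTR) of 114 and 117 bases. Atp5g1-201 and Atp5g1-204 run on for 4252 and 4237 bases. Long 3′ UTRs can carry sites for microRNAs and RNA-binding proteins, that a shorter end leaves out.

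Atp5g1-202, the short form, had 33 reads in the cold library and 10 in the control, a ratio of 4.07 (1.96 to 9.26). Atp5g1-201, the long form, had 25 reads in the cold library and 22 in the control, a ratio of 1.40 (0.758 to 2.61) that did not differ from 1 beyond counting error. Atp5g1-203 and Atp5g1-204 each had 1 read in the cold library and none in the control. The excess of Atp5g1 reads in the cold library lay mostly in short-ended molecules, 34 against 10 reads with a ratio of 4.19 (2.03 to 9.51), and less in long-ended ones, 26 against 22 with a ratio of 1.46 (0.794 to 2.70).

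Short-ended forms made up 56.7% (43.2 to 69.4) of Atp5g1 reads in the cold library and 31.3% (16.1 to 50.0) in the control. The difference of 25.4 percentage points had an interval of 4.02 to 43.2. For scale, 350 genes had coding transcripts with a common last exon start, ends at least 500 bases apart, at least 30 such reads in each library and at least 5 summed reads of each form. Their median difference in the short share was -0.46 points. The interval lay above 0 in 3.43% of them and below 0 in 5.14%. Only 3 of the 350, Atp5g1 included, differed by 25.4 points or more toward the short form. Atp5g1, with 32 control reads, lay near the minimum of 30, where counting error is larger than in deep genes. The comparison was chosen after its values were seen. Among the 2757 genes with several listed transcripts and at least 30 reads in each library, the share of the leading transcript differed in 7.69%, and Atp5g1 belongs to these. For Atp5g1-201 it was 41.7% in the cold library and 68.8% in the control. The first exons of the long and short form also differ, the short form starting 51 bases later, and how a read that fits several transcripts was assigned is not given in the sources used here. A read with the long form's first exon that ends at the early site could therefore be listed under either.

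The annotated ends are shown because the short-form share rests on them. Each line gives 30 bases near the 3′ end, minus strand of chromosome 11 (GRCm38, transcripts of GENCODE M21), with the hexamer of the polyadenylation signal in capitals. The short form holds ATTAAA, a common variant, 29 bases before its end (chr11:96072997-96073026), and the long form holds AATAAA, the usual signal, 21 bases before its end (chr11:96068852-96068881).
Atp5g1-202: ccATTAAAcaacaacaacaacaacaacaac
Atp5g1-201: ataAATAAAttttttaaaaaagctttaaaa

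**Figure D2:**
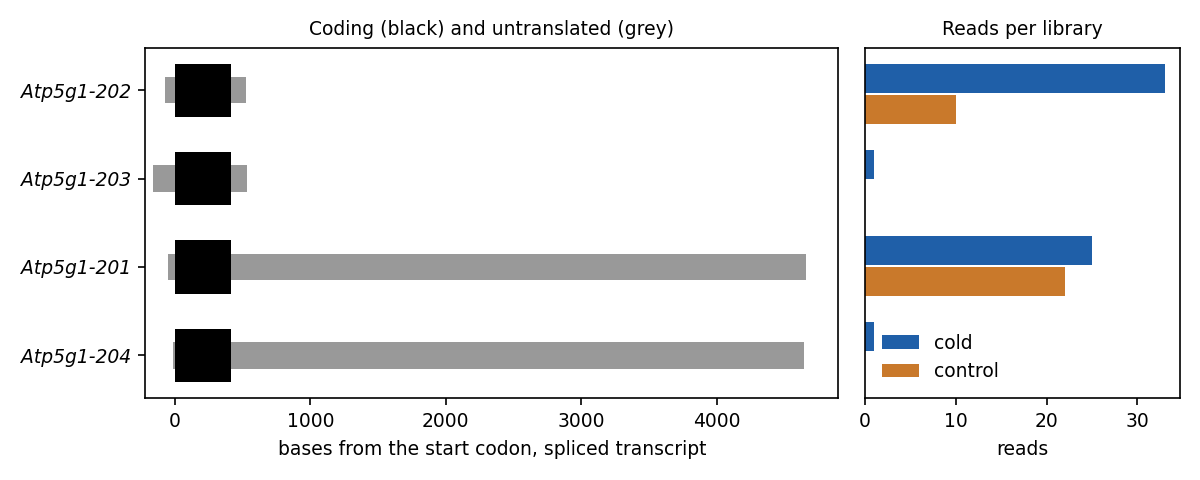
Left, the 4 annotated Atp5g1 transcripts drawn to scale in bases from the start codon, with coding sequence in black and untranslated sequence in grey. Right, reads of each transcript in the cold library (blue) and the control library (orange): the short Atp5g1-202 has 33 and 10 reads, the long Atp5g1-201 has 25 and 22.

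The promoters of the c-subunit genes are given because the genes differed in their ratio while encoding the same mature protein. The bases are from RefSeq (GRCm38.p6, minus strand) and stop right before the first exon of the leading transcript, at chr11:96075671-96075881 for Atp5g1, chr15:102671128-102671297 for Atp5g2 and chr2:73911327-73911576 for Atp5g3. Capitals mark matches on either strand to CCAAT (the CCAAT box, bound by NF-Y), CAAGGTCA (the core bound by estrogen-related receptors, which drive mitochondrial genes in brown fat) and GCATGCGC (the core bound by NRF1).
Atp5g1: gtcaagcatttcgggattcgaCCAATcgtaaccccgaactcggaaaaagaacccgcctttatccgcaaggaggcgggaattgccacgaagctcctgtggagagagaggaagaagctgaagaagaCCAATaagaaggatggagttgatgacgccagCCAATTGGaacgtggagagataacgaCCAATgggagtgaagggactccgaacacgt
Atp5g2: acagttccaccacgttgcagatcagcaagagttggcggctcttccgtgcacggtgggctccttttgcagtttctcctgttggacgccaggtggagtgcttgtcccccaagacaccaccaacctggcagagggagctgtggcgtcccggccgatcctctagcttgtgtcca
Atp5g3: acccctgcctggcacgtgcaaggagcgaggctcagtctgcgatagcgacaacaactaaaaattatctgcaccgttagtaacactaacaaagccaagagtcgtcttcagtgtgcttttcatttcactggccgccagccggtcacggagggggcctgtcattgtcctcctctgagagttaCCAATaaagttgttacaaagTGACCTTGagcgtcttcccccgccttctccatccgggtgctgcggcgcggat

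Atp5g1 held 5 matches to CCAAT, of which a pair overlaps on opposite strands. Of 32851 RefSeq promoters, 33.8% held at least 1 such match in their 250 upstream bases and 0.840% held at least 4. Atp5b, which had a ratio near 1, held 5 as well. CAAGGTCA occurred once in Atp5g3, here as its reverse complement, and in 1.33% of all promoters. GCATGCGC occurred in the 250 bases of Atp5g2 on both strands, inside an annotated exon that is not printed, and in 2.26% of all promoters. These are matches of letters in a window, and binding was not measured.

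The F1 genes, which form the catalytic head, together had 10415 reads in the cold library and 13894 in the control, a ratio of 0.924 (0.901 to 0.948). Under TMM 4 of the 5 had an interval below 1, all but Atp5b. So did 39.9% of the 596 genes with at least 500 summed reads, a depth that these genes reached. With total counts only Atp5c1 had an interval below 1. Atp5b, the catalytic β subunit, was the most read member, with 4520 reads in the cold library and 5654 in the control, a ratio of 0.986 (0.948 to 1.03). With total counts its log2 ratio was 0.16, and its interval lay above 1. Atp5a1, the α subunit that alternates with β in the head, had 2721 and 3728 cold and control reads and was 1.11-fold lower (1.06 to 1.17) in the cold library. Its log2 ratio of -0.15 turned to 0.03 with total counts.

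Atp5c1, the γ subunit that forms the rotating shaft, had the lowest ratio of the members. It had 616 reads in the cold library and 956 in the control, 1.26-fold lower (1.14 to 1.39) in the cold library, and was the one member whose interval stayed below 1 under every scaling. Atp5e, the ε subunit at the foot of the shaft, had 1261 and 1775 reads, cold and control, and was 1.14-fold lower (1.06 to 1.23), with a log2 ratio of -0.19, or -0.01 with total counts. Atp5d, the δ subunit beside it, had 1297 reads in the cold library and 1781 in the control, 1.11-fold lower (1.04 to 1.20), and its log2 ratio of -0.16 turned to 0.02 with total counts.

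The stalk genes had ratios in the range of the F1 genes. Atp5o encodes OSCP, which joins the stalk to the top of the head, and had 1253 reads in the cold library and 1721 in the control. It was 1.11-fold lower (1.04 to 1.20) in the cold library, and its log2 ratio of -0.16 turned to 0.02 with total counts. Atp5h, subunit d of the stalk, had 1071 reads in the cold library and 1397 in the control, a ratio of 0.945 (0.872 to 1.02). A second annotated gene with the symbol Atp5o had no reads.

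Counted over the 10 members, 6 had an interval wholly below a ratio of 1, 1 had an interval above it, and 3 spanned it. Over all 7529 genes with at least 20 summed reads, 11.3% lay below and 11.3% above. Deeper genes have narrower intervals, and among the 596 genes with at least 500 summed reads, a depth that 9 of the 10 members reached, 39.9% lay below and 26.7% above. With total counts 1 member, Atp5c1, lay below, and 2, Atp5g1 and Atp5b, lay above. The median log2 ratio of the members was -0.15 under TMM and 0.03 with total counts, beside -0.00 and 0.17 for all genes. Apart from Atp5g1 and Atp5c1, no member had an interval off 1 on the same side under all 4 scalings.

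Shares within the set do not depend on scaling. Of all member reads, Atp5b took 33.1% (32.4 to 33.9) in the cold library and 31.0% (30.4 to 31.7) in the control. Atp5c1 took 4.52% (4.17 to 4.88) and 5.25% (4.93 to 5.58), and Atp5g1 0.440% (0.336 to 0.566) and 0.176% (0.120 to 0.248), of cold and control member reads. For these genes the intervals of the libraries did not overlap, and for the other 7 they did. Depth sets the width of these intervals. No matching share over all genes was computed, so this count cannot be called unusual. In scaled RPKM the order of levels was the same in both libraries: Atp5e, Atp5b, Atp5h, Atp5o, Atp5d, Atp5a1, Atp5g3, Atp5c1, Atp5g2 and Atp5g1. Neighbours whose counting intervals overlapped were Atp5h and Atp5o in both libraries, and Atp5d and Atp5a1, and Atp5c1 and Atp5g2, in the cold library alone. Atp5g1 stood at 48.2 scaled RPKM (36.8 to 62.0) in the cold library and 13.4 (9.19 to 19.0) in the control, below Atp5g2 at 360 (322 to 400) and 398 (362 to 435). Each read is 1 molecule, so division by length raises short transcripts in this order. By reads, Atp5b, with 4520 in cold and 5654 in control, stood above Atp5e, with 1261 and 1775. The Atp5g1 levels also weight its short form above its long form, and its ratio by reads was 2.31.

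**Figure D3:**
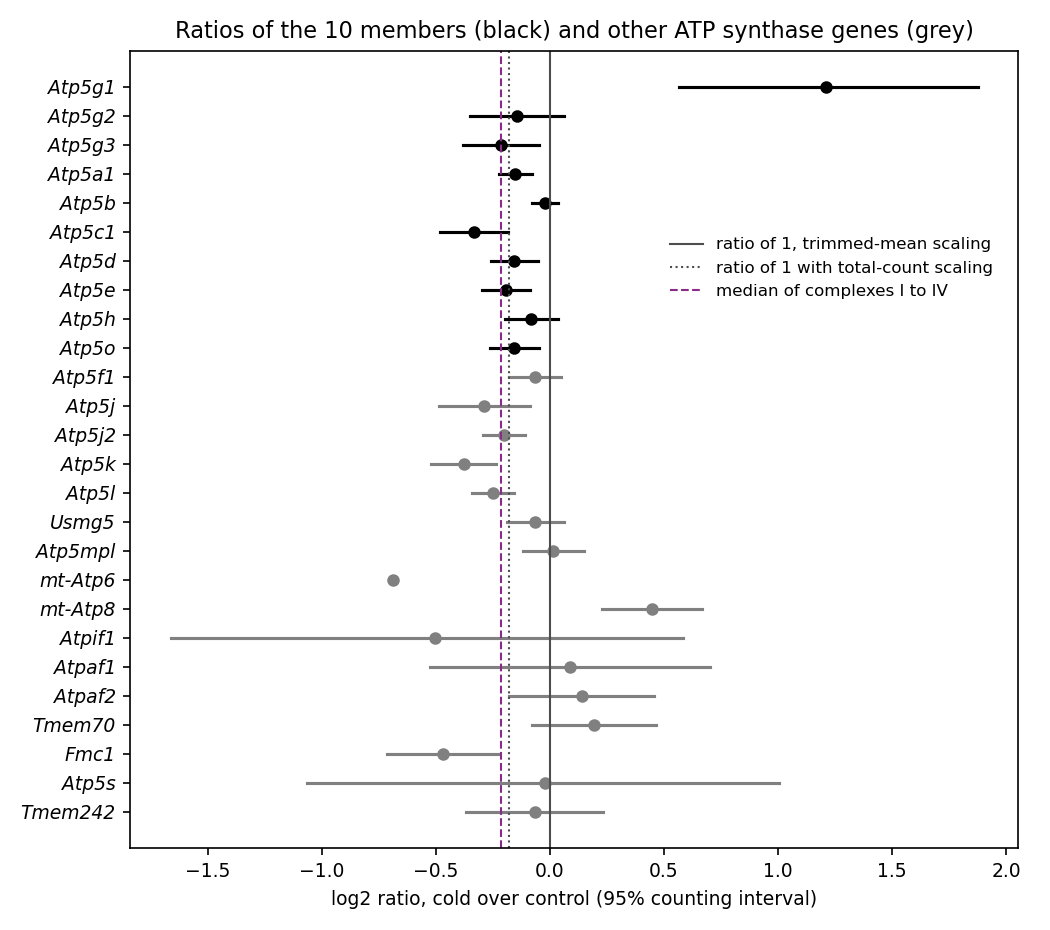
Log2 ratio of cold over control with 95% counting intervals for the 10 members (black) and 16 other ATP synthase genes (grey), 1 library per group. Atp5g1 lies to the right at about 1.2, the other members lie between -0.33 and -0.02, the dashed line is the median of complexes I to IV, and the dotted line shows where a ratio of 1 falls with total-count scaling.

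In percentage points, the transcript shares of the other members differed less than those of Atp5g1, whose intervals were wide. Of the 32 transcripts with at least 10 summed reads, 6 had a share of their gene's reads whose difference excluded 0, 2 higher and 4 lower in the cold library. They came from Atp5g1, Atp5b and Atp5e. Of 6413 such transcripts in all genes with several listed transcripts and at least 30 reads in each library, the interval excluded 0 in 8.11%, with 3.99% higher and 4.12% lower. Shares within a gene sum to the whole, so its transcripts are not independent, and deeper genes have narrower intervals. Of the 9 members with at least 100 reads in each library, the leading transcript's share differed in 1, Atp5b, beside 10% of all 980 such genes.

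The full-length Atp5b-201 held 96.9% of Atp5b reads in the cold library and 94.6% in the control, 2.25 points more (1.47 to 3.03). The balance lay in Atp5b-204 and Atp5b-206, annotated as non-coding forms of 399 and 478 bases. Both end in the last exon, 119 and 118 bases before the end of Atp5b-201. They also start 5768 and 5279 genomic bases after it, with 2 and 3 exons against 10. Atp5b-206 had 92 reads in the cold library and 173 in the control, a ratio of 0.656 (0.504 to 0.849). Atp5b-204 had 40 and 108 reads, cold and control, a ratio of 0.457 (0.309 to 0.662). Together they were 2.92% (2.45 to 3.45) of Atp5b reads in the cold library and 4.97% (4.42 to 5.57) in the control. Because these forms lack the first exons, their share does not measure how often full-length Atp5b molecules end early. It cannot be set against the share of the short Atp5g1 forms, which hold the whole coding sequence.

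The signals at the ends of Atp5b are printed for comparison with those of Atp5g1, as 30 bases of the plus strand of chromosome 10 (GRCm38). The early end holds AATAAA 14 bases before it (chr10:128090244-128090273) and the late end ATTAAA 21 bases before it (chr10:128090362-128090391), marked in capitals.
Atp5b-206: taaagttttcAATAAAgtatatacccctca
Atp5b-201: attATTAAAaagatcaatttattaatgaga

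Atp5e-202, a transcript of 1697 bases with a retained intron, had 8 reads in the cold library and 26 in the control, which is 0.634% and 1.46% of Atp5e reads, a difference of -0.83 points (-1.57 to -0.06). The coding Atp5e-201 held 99.0% and 98.4% of cold and control Atp5e reads. In Atp5a1 the coding forms Atp5a1-201 and Atp5a1-202, which differ in their first exon, held 47.6% and 51.8% of cold reads and 47.4% and 52.0% of control reads. The coding forms Atp5g3-201 and Atp5g3-202, which start 1 base apart, held 50.3% and 47.3% of cold reads and 51.3% and 47.1% of control reads. In Atp5g2, Atp5g2-202 held 99.7% of cold and 99.8% of control reads. In Atp5c1 the share of Atp5c1-203 was 71.3% in the cold library and 67.7% in the control, a difference of 3.59 points (-1.10 to 8.17) that was not beyond counting error. Atp5c1-201 held 16.6% and 19.2%, and Atp5c1-202 12.2% and 13.1%, of cold and control reads. In Atp5d, Atp5d-201 held 50.6% in the cold library and 47.8% in the control, with a difference of 2.74 points (-0.84 to 6.31). Atp5d-203 held 47.3% and 49.8% of cold and control Atp5d reads. In Atp5h, Atp5h-201 held 61.0% in both libraries and Atp5h-202 held 28.4% of cold and 28.3% of control reads. In Atp5o, Atp5o-201 held 95.5% of cold and 95.1% of control reads. In Atp5h and Atp5o no share of a transcript with at least 10 summed reads differed beyond counting error, and transcripts not annotated as coding took 3.83% and 3.58% of cold and control Atp5h reads and 4.23% and 4.47% of cold and control Atp5o reads.

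**Figure D4:**
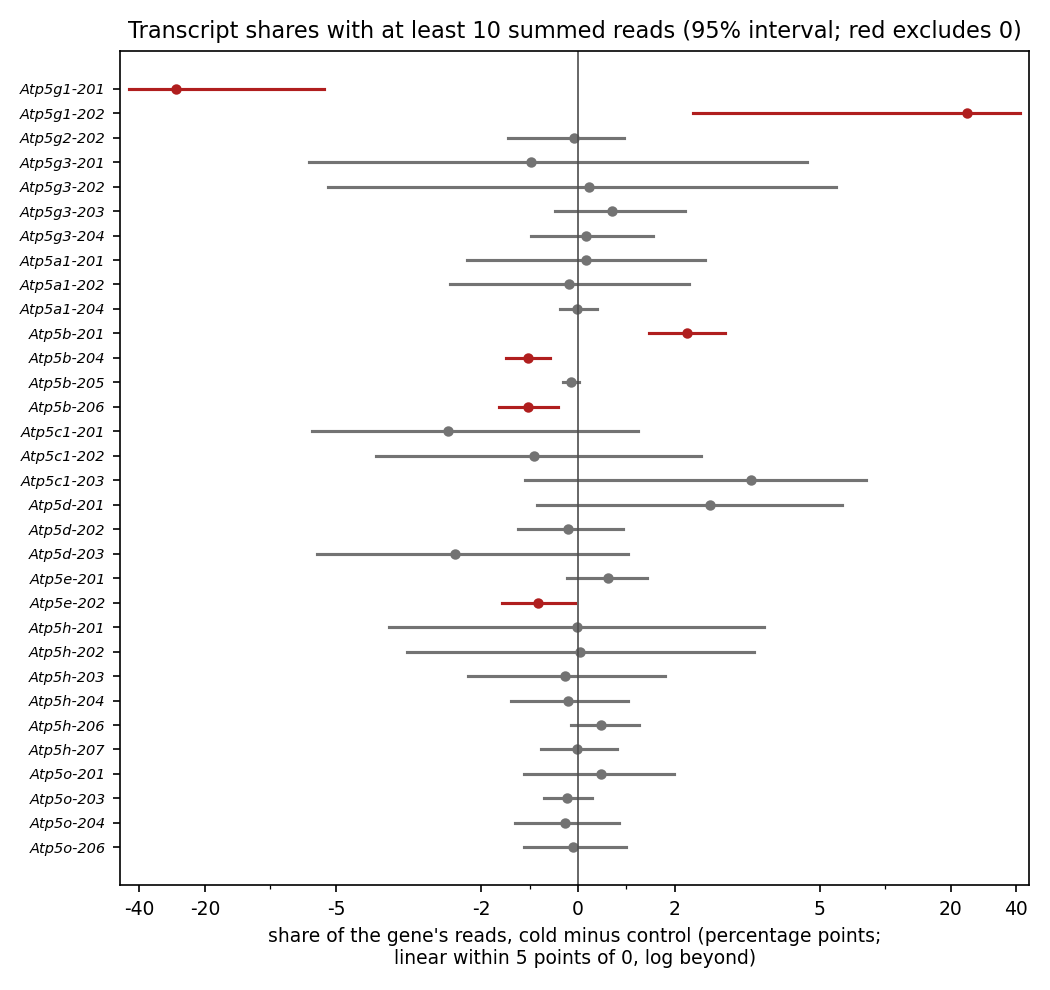
Difference in the share of a gene's reads (cold minus control, percentage points, linear within 5 points of 0 and logarithmic beyond) for the 32 member transcripts with at least 10 reads over both libraries, with 95% Newcombe intervals. Red intervals exclude 0: the Atp5g1 pair is farthest out, and Atp5b-201, Atp5b-204, Atp5b-206 and Atp5e-202 lie within 2.25 points of 0.

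The other genes of the enzyme were read from a list of 18 symbols, of which 16 are annotated under that name and all 16 had at least 20 summed reads. Of these, 6 had an interval below a ratio of 1 and 1 above under TMM. Over all genes with at least 20 summed reads, 11.3% lay below and 11.3% above. With at least 500 summed reads, 39.9% and 26.7% did. The median log2 ratio of the 16 was -0.06 (0.11 under total counts). Among the small membrane subunits, Atp5k (subunit e) was 1.30-fold lower (1.18 to 1.43) in the cold library with 674 against 1080 reads, and Atp5l (subunit g) 1.19-fold lower (1.11 to 1.27) with 1587 against 2326. Atp5j2 (subunit f) was 1.15-fold lower (1.08 to 1.23) and Atp5j (factor 6 of the stalk) 1.22-fold lower (1.06 to 1.40). Under TMM, Atp5f1 (subunit b of the stalk), Usmg5 and Atp5mpl had intervals that spanned 1. Their ratios were 0.957 (0.883 to 1.04), 0.957 (0.877 to 1.04) and 1.01 (0.920 to 1.11). Total counts add 0.18 to every log2 ratio. With them, of Atp5k, Atp5l, Atp5j2 and Atp5j only Atp5k would keep an interval below 1. The intervals of Atp5mpl and, narrowly, Atp5f1 would lie above 1.

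Of the assembly factors, Fmc1 alone had an interval off 1 under TMM. With total counts, which add 0.18 to every log2 ratio, it would stay below 1. The intervals of Tmem70 and Atpaf2 would then lie above 1, that of Atpaf2 narrowly. Fmc1, an assembly factor known from yeast, was 1.38-fold lower (1.17 to 1.64) in the cold library with 220 against 375 reads. Tmem70, which assembles the c ring, had 217 reads in the cold library and 234 in the control, a ratio of 1.14 (0.946 to 1.38). Atpaf2 and Atpaf1, chaperones of the α and β subunits, had ratios of 1.10 (0.884 to 1.37) and 1.06 (0.694 to 1.62). Tmem242 had 165 reads in the cold library and 213 in the control, and Atp5s 16 and 20 cold and control reads, with ratios of 0.955 (0.775 to 1.18) and 0.987 (0.478 to 2.00). Atpif1, the inhibitor that blocks the enzyme from running backwards, had only 12 reads in the cold library and 21 in the control, and with so few reads its ratio of 0.705 could not be told from 1.

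The mitochondrially encoded subunits differed from each other. mt-Atp6, subunit a beside the c ring, had 37730 reads in the cold library and 74956 in the control, 1.61-fold lower (1.59 to 1.63) in the cold library. mt-Atp8, whose reading frame overlaps that of mt-Atp6 on 1 mRNA, had 368 reads in the cold library and 333 in the control, a ratio of 1.36 (1.17 to 1.59). Because these frames share an mRNA, the split of reads between them is uncertain. Gm10925, a nuclear copy that shares all its 25-base words with mt-Atp6, had 30275 reads in the cold library and 61592 in the control, so the reads of gene and copy are uncertain too.

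Nuclear subunits of respiratory complexes I to IV gave a similar picture to the members. Of 62 such genes, 47 had an interval below 1 and 1 above under TMM. Among the 596 genes with at least 500 summed reads, 39.9% lay below and 26.7% above. The median log2 ratio of the 62 was -0.21 (-0.03 under total counts), beside -0.15 and 0.03 for the ATP synthase members. The 88 genes of these lists, with the assembly factors and inhibitor of ATP synthase included, were ordered by log2 ratio, and Atp5g1 was the second. The first was Cox6a2, the heart and muscle isoform of a cytochrome c oxidase subunit, with 46 reads in the cold library and 3 in the control. The lists were chosen with earlier results of these data known, so these ranks only describe them.

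Short transcripts as a class were lower in the cold library. Of nuclear transcripts with at least 20 summed reads, those under 1000 bases had a median log2 ratio of -0.17 over 1095 transcripts, those of 1000 to 2000 bases -0.03 over 2309, those of 2000 to 4000 bases 0.05 over 3398, and longer ones 0.06 over 2345. The leading transcript was under 1000 bases in 6 of the 10 members, whose log2 ratios of -0.21 to -0.08 lie around the median of that class. The part of length in the members' ratios was not tested. The short Atp5g1-202, at a log2 ratio of 1.97 and 596 bases, went against its length class.

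Set beside Ucp1, which uses the same proton gradient without making ATP, the balance of messages differed between the libraries. There were 1.07 Ucp1 reads for each read of the 10 members in the cold library and 0.816 in the control. Against Atp5g1 alone the balance ran the other way, with 242 Ucp1 reads per Atp5g1 read in the cold library and 464 in the control. These are ratios of read counts and need no library scaling. They are given without intervals, and those against Atp5g1 rest on its 60 cold and 32 control reads.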

How the data were processed

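The authors deposited whole-number read counts per transcript for each library. They are not normalized and list only transcripts with at least 1 read. The submitters' processing notes name minimap2 and GRCm38. Which aligner version and annotation were used, and where a read with several possible transcripts was counted, is not given in the sources used here. Per the labels, 500 ng of poly(A)+ RNA entered each direct RNA library. The 10 members, lists and motifs were chosen with earlier results of these data known.

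Transcript identifiers without version were matched to GENCODE M21, and 0.0652% of cold and 0.0571% of control reads had no gene. Counts were summed to genes and scaled with edgeR 4.0.16 TMM factors (1.06 for cold, 0.940 for control). Log2 ratios used a prior of 0.5 reads. Ratio intervals are exact Clopper-Pearson intervals of the cold share of both counts, levels have exact Poisson intervals, shares have exact binomial intervals and differences of shares Newcombe intervals. Depth sets their width, since they cover counting error only. Levels per kilobase divide each transcript's reads by its annotated length. A copy shares at least 80% of its 25-base words with a member. DESeq2 1.42.0 size factors, total counts and other alternatives were also computed. The code was tested on simulated data. The rule for names covers all members, their transcripts with at least 10 summed reads, and genes of the ATP synthase list with at least 20. Of these transcripts, minor ones are given only in the plot of transcript shares and in counts. Transcripts with fewer reads, Gm10175, Gm10039, Gm10925, Cox6a2 and the 3′-end comparison were picked after their values were seen.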

Additional observations from a re-analysis of the deposited data

How the results depend on the processing

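Scaling decides the small differences. With total counts the median log2 ratio of the members turned to 0.026, against -0.15 under TMM, and was -0.021 with total counts without mitochondrially encoded genes. Members with an interval below 1 numbered 6 under TMM and DESeq2 size factors and 1 under either total-count scaling. Log2 ratios of Atp5a1, Atp5d and Atp5o turned to 0.028, 0.025 and 0.024 with total counts. These shifts follow from the scaling, which adds 0.18 or 0.13 to every log2 ratio. Counting only the most abundant transcript of each gene lowered the log2 ratio of Atp5g1 to 0.48 with an interval that spans a ratio of 1, the span between the highest and lowest member to 0.73 in place of 1.53, and the difference in the Atp5g1 share of c-subunit reads to 1.48 points in place of 4.03, because the short form is then left out. With coding transcripts alone in the denominator, 2 transcript shares in place of 6 differed, since the non-coding forms of Atp5b and Atp5e are then absent. DESeq2 size factors, TMM on genes with at least 20 reads, coding transcripts alone, added copies and a prior of 2 left each of the 10 gene log2 ratios within its counting interval. Chosen after the data were seen, ends at least 1000 bases apart gave 2.82% of genes above 0 in place of 3.43%, and the short-form difference of Atp5g1 was 25.6 points, in place of 25.4, with its 2 main transcripts alone. No paired analysis was possible because each group is 1 library. Atp5g1 rests on 92 reads in all, which limits what can be said of its forms.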
